A study of Mus musculus with 12 samples.

Results

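The voltage-gated potassium channel genes described here are 26 protein-coding genes of 33906 gene identifiers measured in mouse lumbar spinal cord. They were chosen by a Kcna, Kcnb, Kcnc, Kcnd or Kcnq symbol with a number, which encode pore-forming alpha subunits, together with the Kcnab and Kcnip genes, which encode partner proteins of those channels. The rule uses no measured value. Poly(A) RNA was read in 12 libraries, each from a separate mouse, with 3 mice in each of 4 groups. Wild-type, healthy animals formed group H (libraries H1, H2, H4). The remaining animals came from a model of amyotrophic lateral sclerosis (ALS), in which motor neurons die. Of these, group P (P66, P67, P74) had phosphate-buffered saline, and group C (C79, C84, C85) had manganese-doped carbon dots (Mn@CDs), particles that act like superoxide dismutase. Group E (E75, E77, E90) was taken to be the edaravone group by elimination, because the series text lists a code E but describes this radical scavenger under a code D. The sources used here give neither the strain or transgene of the model, nor the age and sex of the animals, nor any dose, so the stage of disease in P, C and E is not known.

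Voltage-gated potassium channels open when a membrane is depolarised and let potassium leave the cell, which ends the action potential and sets how often a neuron can fire. A channel is a ring of alpha subunits, each with a voltage sensor and a pore loop, and alpha subunits assemble within a family. Kv1 channels (Kcna) sit beside the nodes of myelinated axons and at axon initial segments and damp excitability, and Kv2 channels (Kcnb) carry slow delayed rectifier current at the cell body. Kv3 channels (Kcnc) open and close fast and allow high firing rates, Kv4 channels (Kcnd) carry transient current in dendrites, and Kv7 channels (Kcnq) carry the M-current that holds neurons near rest. The cytoplasmic Kcnab proteins bind Kv1 channels, and the calcium-binding Kcnip proteins bind Kv4 channels.

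The pore-forming members share a short coding stretch that the choice by symbol did not use. It encodes the selectivity filter, the ring of backbone oxygens that passes potassium and not sodium. The filter was searched in frame on the coding strand as ACNNTNGGNTANGGN in 21866 annotated mouse coding sequences. It was found in all 19 alpha subunit genes described here and in 69 sequences in all (0.316%), and in none of the 7 Kcnab and Kcnip genes. The stretches of 60 coding bases below are those of members described in the results, with 12 codons before the filter, the 5 filter codons in capitals and 3 codons after it, read 5′ to 3′ from GENCODE M21 transcripts on GRCm38.
Kcna2: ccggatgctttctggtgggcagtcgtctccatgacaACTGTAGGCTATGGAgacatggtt
Kcna6: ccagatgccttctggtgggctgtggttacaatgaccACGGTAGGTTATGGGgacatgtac
Kcnb2: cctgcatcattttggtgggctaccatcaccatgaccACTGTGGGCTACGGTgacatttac
Kcnd1: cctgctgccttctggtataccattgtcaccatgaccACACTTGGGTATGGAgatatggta

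These stretches lie at chr3:107105188-107105247 (plus strand) for Kcna2, chr6:126738638-126738697 (minus strand) for Kcna6 and chr1:15710010-15710069 (plus strand) for Kcnb2. That of Kcnd1 is split over 2 coding exons within chrX:7824920-7831187 (plus strand). The second filter codon followed the families. It was GTN in the 9 Kcna and Kcnb genes, CTN in 5 of the 6 Kcnc and Kcnd genes and TTA in the other one, Kcnc2, and ATT in the 4 Kcnq genes. Kcna2 and Kcna6 shared 46 of 60 bases, Kcna2 and Kcnd1 43, and Kcna2 and Kcnb2 41. The longest identical run between transcripts of 2 members described here was 91 bases for Kcna5 and Kcna6, followed by 55 bases for Kcna3 and Kcna10. Reads that fall within such a run cannot be given to 1 gene, and how the authors' counting treated them is not known.

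Levels are FPKM, in which a gene's reads are divided by its exon length in kilobases and by library depth, and the reads recovered from these values summed to 16.8 to 19.8 M per library. Differences are of log2(FPKM + 1), which understates changes of low genes, and were tested with limma across the 18119 genes with enough reads, 24 members among them. A gene passed at a Benjamini-Hochberg adjusted p under 0.05. Neuron markers were present in every library, with a summed level over 10 genes of 1452 to 1727 FPKM in H and 846 to 1268 in the ALS model groups. The summed level of 10 microglia markers was 138 to 178 FPKM in H and 430 to 988 in the ALS model groups, and that of 8 astrocyte markers 718 to 830 and 1538 to 2875. Markers of sensory ganglia summed to at most 4.19 FPKM in any library. The sum of 5 erythroid markers was 402 to 2577 FPKM in H, highest in H4, and 107.5 to 388 in the ALS model groups. The part of blood in the comparisons with H was not tested. The libraries also differed along the body axis by their posterior Hox genes, whose mean log2 level was lowest in H4 (0.32), C84 (0.54) and P66 (0.86) and 2.25 to 2.71 in E.

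In healthy cord, 11 members averaged over 10 FPKM, 11 between 1 and 10, and 4 under 1. The beta subunit gene Kcnab2 was the highest at 109.6 ± 21.8 FPKM (SD, n = 3). Kcna2 followed at 44.1 ± 9.04 FPKM and Kcnc1, a Kv3 subunit of fast-firing neurons, at 28.6 ± 2.00, and the healthy libraries of these 3 genes did not overlap. Among the 25 neighbouring pairs in this order, 20 overlapped in H. In the other families, Kcnip3 stood at 15.2 ± 0.83 FPKM, Kcnd2 at 12.6 ± 2.39, Kcnq3 at 7.54 ± 0.92 and Kcnb2 at 1.16 ± 0.16. The members under 1 FPKM were Kcna3, a channel of T cells and microglia, Kcnq1, a heart channel, and Kcna7 and Kcna10.

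Kcna7 and Kcna10 had too few reads to be tested. Kcna10 had 0 to 4 reads per library, at most 0.107 FPKM. Kcna7, a channel gene of skeletal muscle, stood at 2.29 FPKM (84 reads) in H1 and at most 0.0812 in the other 11 libraries. In H1, 9 skeletal muscle markers summed to 2328 FPKM, against at most 203 in any other library.

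**Figure D1:**
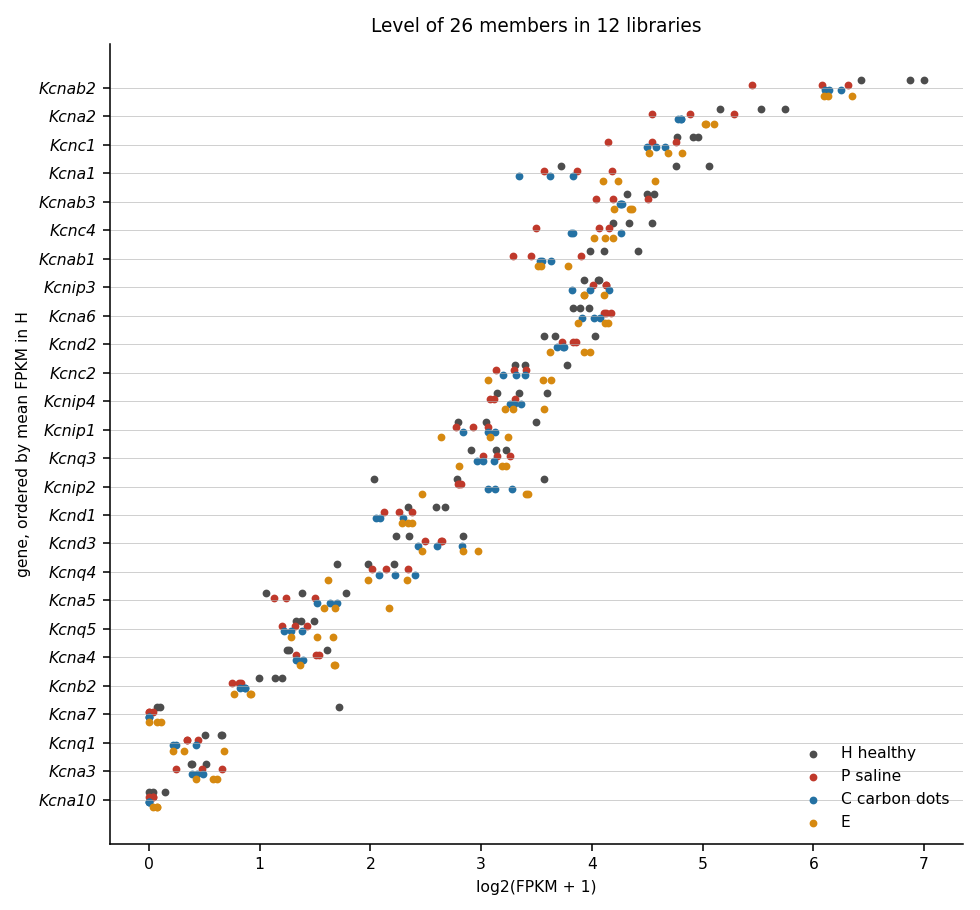
Levels of 26 members in the 12 libraries, as log2(FPKM + 1) on the horizontal axis, with genes ordered from top to bottom by their mean FPKM in H and 1 point per mouse, coloured by group. The ALS model points of Kcnab2 lie to the left of the healthy ones, and the single high point of Kcna7 is H1.

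P set against H shows these genes in the disease model given saline. Of the 24 tested members, 4 fell and 0 rose: Kcnab2, Kcnab1, Kcna2 and Kcnb2. That is 16.7% of the members, against 3.26% of all genes tested that were lower and 12.2% that were higher (591 and 2216 genes, or 1230 and 1396 with median-ratio scaling, where 6 members fell and 0 rose). At an unadjusted p under 0.05, 8 members were lower and 1, Kcna6, was higher, against 9.13% and 23.6% of all genes tested. The median log2 difference was -0.19 over the members and 0.07 over all genes tested. The lower side held 15 members and the higher side 9, with a range from -0.82 to 0.24. In 6 members every P library was below every H library, which was so for 8.88% of all genes tested. No member passed without H2, without P66, with no filter on low values, or when only P and H were in the fit. Kcnab2 alone passed without P67, Kcnab1 and Kcnb2 without H1, and 7 members without P74. With the posterior Hox level of each library as a covariate 7 fell: Kcnb2 was lost, and Kcna1, Kcnab3, Kcnc1 and Kcnc4 were added.

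None of the Kv3 genes described here passed. Kcnc1 did pass with median-ratio scaling and with the posterior Hox covariate, and Kcnc4 with that covariate. Kcnc1 measured 29.2 FPKM in H1, 30.1 in H2 and 26.3 in H4, against 16.7 in P66, 22.2 in P67 and 26.1 in P74. All P libraries were below all H libraries, P74 only just, with a log2 difference of -0.40 ± 0.14 (standard error, adjusted p = 0.0698). Leaving out 1 library moved it from -0.54 without P74, where it passed (adjusted p = 0.0166), to -0.23 without P66. Kcnc4, a fast-inactivating Kv3 subunit, was also lower in every P library than in any of H (19.6 ± 2.56 FPKM in H, 14.3 ± 3.52 in P, -0.45 ± 0.17, adjusted p = 0.0954), with -0.58 without P74 (adjusted p = 0.0476) and -0.25 without P66. Kcnc2 overlapped (-0.21 ± 0.16, adjusted p = 0.379).

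Of the 3 beta subunit genes, Kcnab2 (ENSMUSG00000028931, chr4:152390742-152477871, minus strand) and Kcnab1 (ENSMUSG00000027827, chr3:65109384-65378223, plus strand) fell and Kcnab3 did not pass. Kcnab2 measured 116.4 FPKM in H1, 127.2 in H2 and 85.2 in H4, against 42.6 in P66, 66.5 in P67 and 78.7 in P74. The groups were apart, with H4 the lowest of H and P74 the highest of P. The mean in P was 57.1% of that in H (log2 difference -0.82 ± 0.20, adjusted p = 0.0207). Kcnab1, which gives Kv1 channels fast inactivation, measured 16.3, 20.3 and 14.8 FPKM in the H libraries and 8.76, 9.91 and 13.9 in the P libraries. These too were apart, H4 and P74 by less than 1 FPKM. Its mean in P was 63.4% of that in H (-0.62 ± 0.15, adjusted p = 0.0212). The call of Kcnab2 was lost without H1 (adjusted p = 0.0536), H2 (0.086) or P66 (0.0652), and that of Kcnab1 without H2 (0.0878), P66 (0.0959) or P67 (0.0749). Kcnab3 stood at 18.1 ± 3.23 FPKM in P and 21.1 ± 1.88 in H (-0.22 ± 0.11, adjusted p = 0.203).

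Of the 6 Kv1 alpha subunit genes tested, Kcna2 (ENSMUSG00000040724, chr3:107101146-107115005, plus strand) fell and the other 5 did not pass. Kcna2, a major subunit of axonal Kv1 channels, measured 45.0 FPKM in H1, 52.6 in H2 and 34.6 in H4, against 22.3 in P66, 28.5 in P67 and 37.95 in P74. The groups overlapped, since P74 was above H4. The mean in P was 67.2% of that in H (-0.57 ± 0.17, adjusted p = 0.0455). This call was the least stable of the 4 and was lost when any library but H4 or P74 was left out, with adjusted p up to 0.177 without P66. Kcna1, the partner of Kcna2 in axonal channels and the gene of an episodic ataxia, measured 26.0, 32.3 and 12.2 FPKM in H and 10.9, 13.6 and 17.1 in P. Its healthy libraries were far apart, with H4 inside the range of P, and it did not pass (-0.64 ± 0.29, adjusted p = 0.149). The value moved most with H4 and H2. Without H4 Kcna1 passed at -1.03 (adjusted p = 0.0124), whereas without H2 it was -0.37 (adjusted p = 0.445).

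Kcna6, another neuronal Kv1 subunit, was chosen for description after its values were seen. It measured 13.8, 14.7 and 13.2 FPKM in H and 16.3, 16.5 and 17.1 in P. Every P library was above every H library, but it did not pass (0.24 ± 0.09, adjusted p = 0.0803). At an unadjusted p under 0.05 it was higher, as were 23.6% of all genes tested. The antisense gene Gm26673 overlaps 39.6% of its exon length on the other strand, and stood at 2.39 to 2.44 FPKM in H and 0.988 to 1.57 in the ALS model groups. Without a stated strand setting, reads of the shared bases cannot be told apart. Kcna5 measured 1.60, 1.09 and 2.42 FPKM in H and 1.36, 1.83 and 1.19 in P, and Kcna3 and Kcna4 were 0.03 ± 0.10 and 0.08 ± 0.13 higher in P. None of these was apart from H.

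The Kv2 gene Kcnb2 (ENSMUSG00000092083, chr1:15287254-15723750, plus strand) fell from a low level. It measured 0.994, 1.20 and 1.30 FPKM in H and 0.684, 0.783 and 0.752 in P, which did not overlap. The mean in P was 63.5% of that in H. At this level the added 1 shrinks the log2 difference, which was -0.31 ± 0.09 (adjusted p = 0.0313), against -0.58 with a pseudocount of 0.1 and -0.64 with limma-voom on recovered reads. It was lost without H2 (adjusted p = 0.0952), H4 (0.0749), P66 (0.114) or P67 (0.0728), and with the posterior Hox covariate (0.0575).

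No Kv4 or Kcnip gene passed in P against H. Kcnd2, the main Kv4 gene of these libraries, measured 10.8, 11.7 and 15.3 FPKM in H and 12.3, 13.4 and 13.2 in P, inside the range of H. Kcnd1 measured 5.02, 5.40 and 4.07 FPKM in H and 3.36, 4.197 and 3.79 in P (-0.28 ± 0.11, adjusted p = 0.0979), with P67 above H4, and passed without H4 (-0.38, adjusted p = 0.0412). Kcnd1 also passed with median-ratio scaling. Kcnip3, a calcium sensor that also acts as a transcriptional repressor, measured 15.6, 15.7 and 14.3 FPKM in H and 16.4, 15.2 and 16.5 in P. The 4 Kcnip genes lay between -0.19 and 0.07. Kcnip2, which encodes a Kv4 partner best known in heart, varied widely within H, at 3.09, 5.87 and 10.8 FPKM.

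No Kv7 gene passed either. Kcnq3, a subunit of the neuronal M-current channel, measured 6.53, 7.76 and 8.33 FPKM in H and 8.61, 7.84 and 7.08 in P. These overlapped (0.05 ± 0.12, adjusted p = 0.802). The 4 genes described ranged from -0.23 to 0.20, and Kcnq1, the lowest of them, was below H in all P libraries (0.526 ± 0.089 FPKM in H, 0.299 ± 0.052 in P, adjusted p = 0.165).

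**Figure D2:**
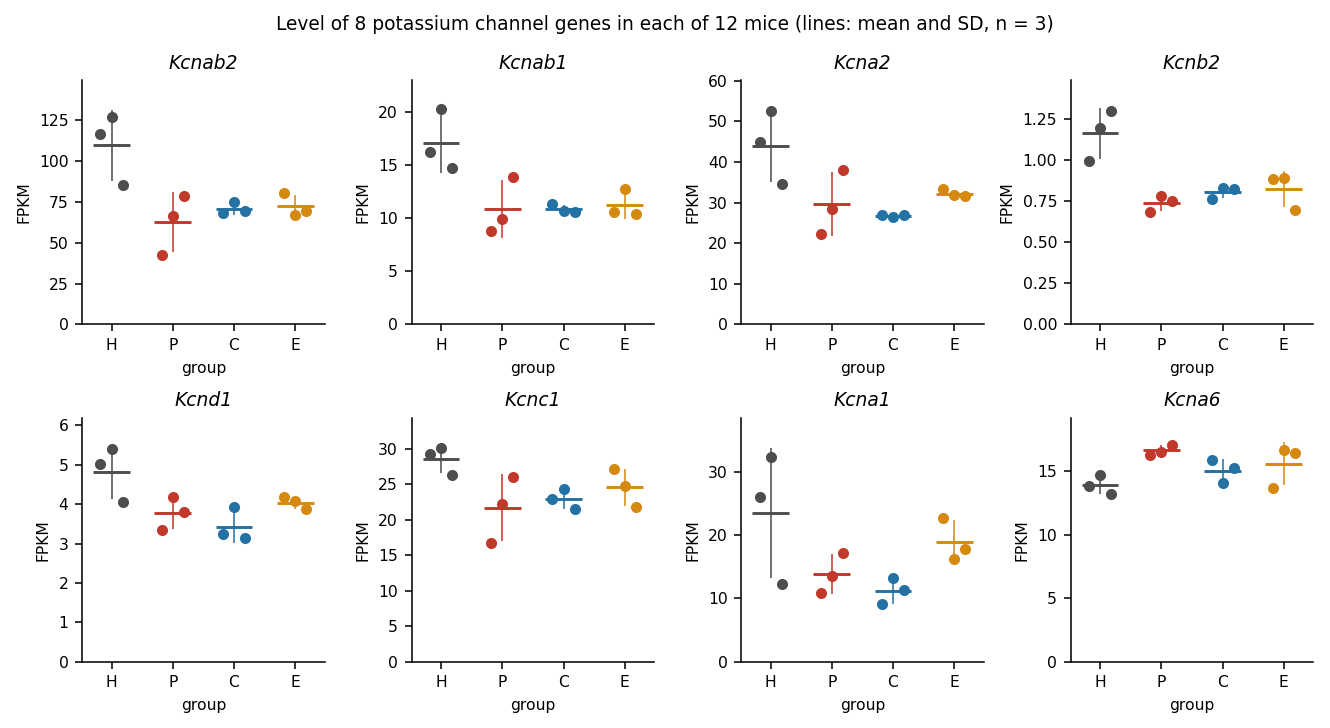
FPKM of 8 members in each of the 12 mice by group, with a horizontal line at the group mean and a vertical line of 1 SD to either side (n = 3). Kcnab2, Kcnab1 and Kcnb2 have no healthy point at or below an ALS model point, whereas H4 lies among the ALS model points of Kcna1 and Kcna2.

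Levels were also summed for 4 families. The Kcnab genes together summed to 147.8 ± 26.2 FPKM in H and 91.5 ± 23.8 in P, and the Kcna genes to 86.0 ± 19.2 and 63.7 ± 11.4. The Kcnd sum was 22.1 ± 3.12 FPKM in H and 21.8 ± 1.37 in P, and the Kcnip sum 39.0 ± 7.01 and 36.6 ± 1.14. These sums were not tested.

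The share of each member in its family is described here without a test. Kcna2 held 49.8 to 53.2% of the Kcna sum in H and 42.3 to 50.3% in the ALS model libraries, and Kcna6 14.3 to 20.3% and 18.3 to 30.9%. Kcnab3 held 13.3 to 15.9% of the beta subunit sum in H and 17.5 to 23.1% in the ALS model libraries, without overlap, as Kcnab2 went from 71.7 to 75.4% to 63.8 to 72.8%.

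**Figure D3:**
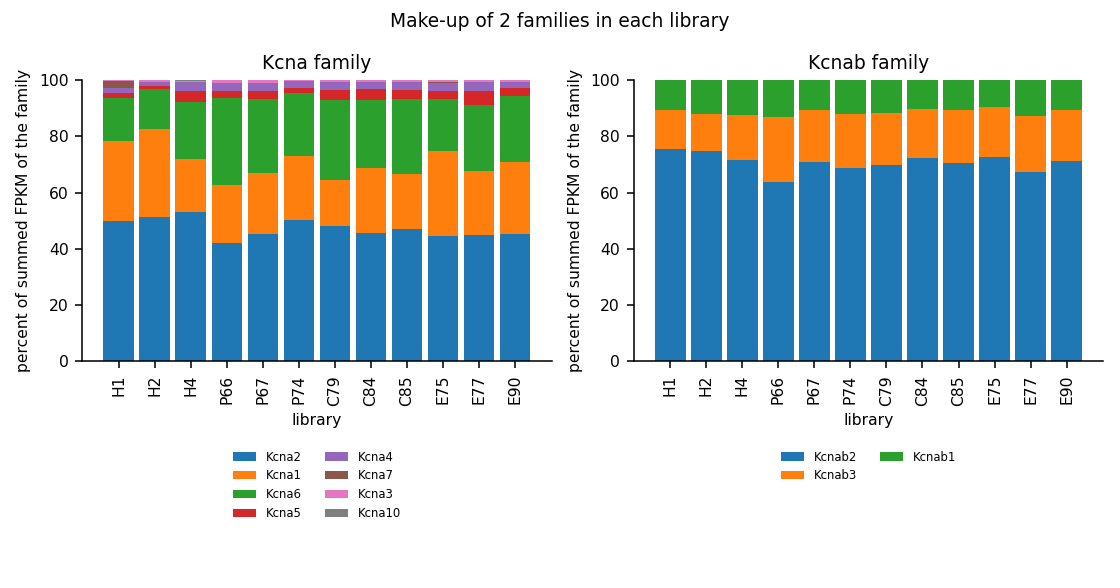
Make-up of the Kcna and Kcnab families in each library, as the percent of the family's summed FPKM taken by each member. The orange band of Kcnab3 is thicker in all 9 ALS model libraries than in the 3 healthy ones, and the green band of Kcna6 is thickest in P66 at 30.9%.

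Neuron markers were lower in P as well. In P against H, 7 of 10 neuron markers and 4 of 9 motor neuron markers fell, with median log2 differences of -0.55 and -0.81, as did 1 of 6 markers of parvalbumin and inhibitory neurons, Pvalb, with a list median of -0.34. The summed neuron markers were 1599 FPKM in H1, 1727 in H2 and 1452 in H4, against 846 in P66, 1038 in P67 and 1268 in P74, the same order within P as for Kcnab2, Kcnab1 and Kcna2. Kcnb2 did not keep this order, at 0.684, 0.783 and 0.752 FPKM in P66, P67 and P74. Within H, Kcnb2 was highest in H4 (1.30 FPKM), where the neuron marker sum was lowest. In such whole tissue, fewer cells of a type and less RNA per cell cannot be told apart, and the part of the neuron markers in these results was not tested.

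Set against the summed neuron markers, the P and H libraries of all 5 members that passed in any comparison overlapped. Kcna2 had 27.5 ± 3.37 FPKM per 1000 FPKM of neuron markers in H and 27.9 ± 1.83 in P, and Kcnab1 10.7 ± 0.91 and 10.3 ± 0.72. Kcnb2 had 0.737 ± 0.142 and 0.719 ± 0.112. Kcnab2 had 68.4 ± 8.39 in H and 58.8 ± 7.39 in P, and Kcnd1 3.02 ± 0.19 and 3.67 ± 0.59. Set against 9 summed motor neuron markers instead, all 5 means were higher in P than in H. Kcna2 had 324 ± 74.8 FPKM per 1000 FPKM of motor neuron markers in H and 436 ± 66.3 in P, without overlap. The other 4 overlapped, among them Kcnab2 at 804 ± 167 and 910 ± 81.4 and Kcnd1 at 36.0 ± 9.37 and 58.5 ± 18.8. Neither ratio was tested.

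**Figure D4:**
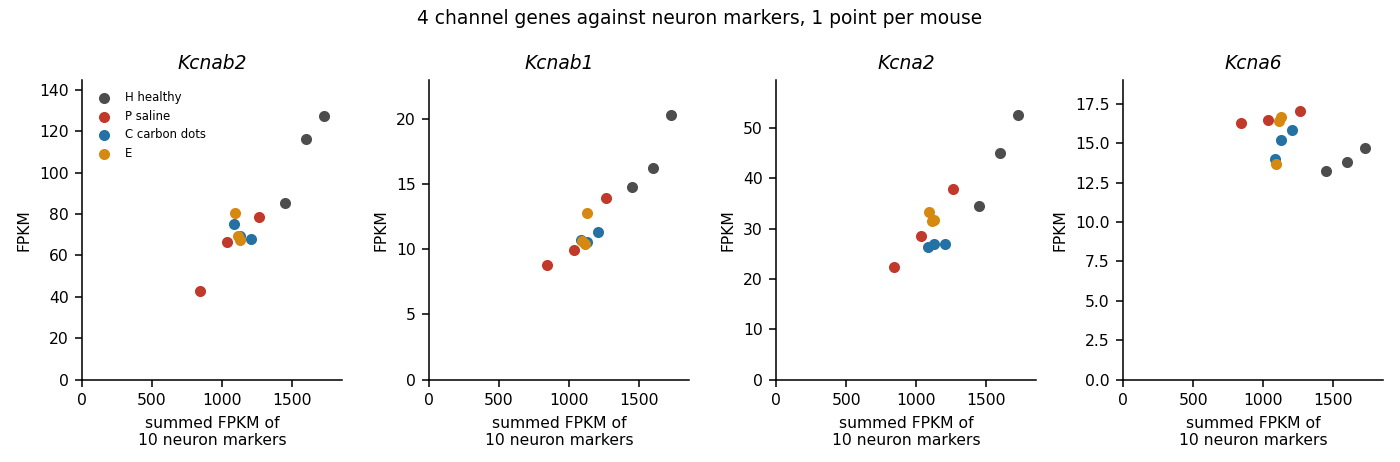
FPKM of Kcnab2, Kcnab1, Kcna2 and Kcna6 against the summed FPKM of 10 neuron markers, with 1 point per mouse coloured by group. Libraries with low marker sums, P66 first, have low Kcnab2, Kcnab1 and Kcna2, while Kcna6 is between 13.2 and 17.1 FPKM in every library and lowest in H4.

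Taking P, C and E together against H, 5 of 24 members fell and 0 rose, 20.8% against 4.2% of all genes tested that were lower and 16.4% that were higher (761 and 2973 genes). With median-ratio scaling 9 members fell, against 1675 genes lower and 1904 higher. The members were the 4 of P against H and Kcnd1 (ENSMUSG00000009731, chrX:7822289-7838280, plus strand), a Kv4 subunit. The comparisons with H share its 3 libraries, so they are not independent. Kcnab1 differed by -0.59 ± 0.13 (adjusted p = 0.00763), Kcnab2 by -0.67 ± 0.16 (0.0155), Kcna2 by -0.56 ± 0.14 (0.0177), Kcnb2 by -0.27 ± 0.07 (0.0185) and Kcnd1 by -0.29 ± 0.09 (0.0383). In Kcnab2, Kcnab1 and Kcnb2 all 9 ALS model libraries lay below all 3 of H, as they did for 2.63% of all genes tested.

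The gaps between the groups were set by H4 or H1. Kcnab2 was at most 80.3 FPKM in the ALS model groups (E75) against 85.2 in H4, Kcnab1 at most 13.9 (P74) against 14.8 in H4, and Kcnb2 at most 0.892 (E77) against 0.994 in H1. Without H2 none of the 5 passed, with adjusted p from 0.059 for Kcnab1 to 0.198 for Kcnd1. Without H1, only Kcnab1 and Kcnb2 did. Kcnb2 was also lost without H4 (0.0662). Kcnd1 was the least stable and was lost in 8 of 19 alternatives, among them the fits without P66, C79, C85, E77 or E90.

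C and E were also each set against H, and the counts were not tested against that of P. In C, 3 members fell, against 1.06% of all genes tested that were lower and 7.25% that were higher (192 and 1313 genes). With median-ratio scaling 4 members fell, against 460 genes lower and 931 higher. Kcna2 measured 26.9, 26.4 and 27.02 FPKM in C79, C84 and C85, all below H (-0.68 ± 0.17, adjusted p = 0.0334). Kcnab1 measured 11.3, 10.7 and 10.6 FPKM (-0.60 ± 0.15, adjusted p = 0.0341), and Kcnd1 3.25, 3.92 and 3.14 (-0.39 ± 0.11, adjusted p = 0.0480), also below all of H. Kcnab2, at 68.0, 74.9 and 69.5 FPKM, was likewise below every H library but did not pass (adjusted p = 0.0872). The calls in C went to 0 without H1, H2, P67, C79 or C85 and to 1 without C84, whereas 5 members passed without H4.

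In E, 1 member fell, against 2.15% of all genes tested that were lower and 11.0% that were higher (390 and 2002 genes). With median-ratio scaling 3 fell, against 918 genes lower and 1289 higher. The 1 member was Kcnab1, at 10.6, 12.8 and 10.4 FPKM in E75, E77 and E90 (-0.56 ± 0.15, adjusted p = 0.0339, and -0.88 with the posterior Hox covariate). The call was lost without H1, H2, E75 or E90 (without E90, Kcnq1 passed in its place), and 3 members passed without H4 and 2 without P66. Kcnab2 measured 80.3, 67.2 and 69.3 FPKM in E, again below every H library (adjusted p = 0.0774). Kcna2 measured 33.3, 31.8 and 31.6 FPKM and Kcnb2 0.884, 0.892 and 0.699, also below H and not passed. Markers of Schwann cells and nerve roots summed to 383 to 873 FPKM in E against 45.6 to 125 in H and 165 to 243 in P, and their part in the values of E was not tested.

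Treatment within the disease model was compared by setting C and E in turn against P, whose 3 libraries both comparisons share. In C against P, 0 of 24 members passed with limma, 0 had an unadjusted p under 0.05, and 0 passed with limma-voom on recovered reads. Over all genes tested 0.00552% passed, which is 1 gene. At an unadjusted p under 0.05 with limma, 1129 of the 18119 genes tested were higher and 673 lower. The median log2 difference of the members was 0.02 (range -0.28 to 0.35), and the smallest adjusted p was 0.605.

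The largest differences in C against P were in Kcnip2, Kcna5 and Kcna1. Kcnip2 measured 8.72, 7.71 and 7.36 FPKM in C79, C84 and C85 and 6.07, 5.94 and 5.96 in P66, P67 and P74. All of C lay above P, but the difference of 0.35 ± 0.33 (95% interval -0.36 to 1.07, adjusted p = 0.762) did not pass. Kcna5, a delayed rectifier subunit also found in heart and glia, measured 2.10, 2.26 and 1.86 FPKM in C and 1.36, 1.83 and 1.19 in P (0.33 ± 0.19, interval -0.09 to 0.74, adjusted p = 0.605), again without overlap. Kcna1 was on the lower side in C, at 9.15, 13.2 and 11.3 FPKM, inside and below the range of P (-0.28 ± 0.29, interval -0.91 to 0.36, adjusted p = 0.794). With the posterior Hox covariate Kcna1 was at 0.01 and Kcnip2 at 0.04. Kcna6 was lower in C than in P without overlap (15.8, 14.0 and 15.2 FPKM in C), at -0.14 ± 0.09 (adjusted p = 0.641). In all, 2 members were higher and 1 lower in C without overlap. With 3 mice per group, the smallest p an exact permutation test can give is 0.1. The share of all genes without overlap was counted only on the lower side of P, and of the 3 ALS model groups, against H.

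In E against P, 0 of 24 members passed with limma and 0 with limma-voom, as did 0.0% of all genes tested with either (520 genes were higher and 369 lower at an unadjusted p under 0.05 with limma). At an unadjusted p under 0.05, 1 member was higher, Kcna5. It measured 2.21, 3.48 and 2.00 FPKM in E75, E77 and E90, all above P (0.52 ± 0.19, interval 0.10 to 0.94, adjusted p = 0.778). Kcna1 measured 22.7, 16.2 and 17.8 FPKM in E, with E77 inside the range of P (0.43 ± 0.29, interval -0.20 to 1.06, adjusted p = 0.998). Kcnip2 measured 9.75, 9.59 and 4.54 FPKM, from above to below P (0.30 ± 0.33, interval -0.42 to 1.01, adjusted p = 0.998). The median of the members was 0.10 and 20 of 24 were on the higher side, with a median of 0.01 over all genes tested. The share of all genes on the higher side was not counted. The 10 neuron markers had a median of 0.175 in E against P, and their part in the values of the members was not tested. In 9 members the side changed in at least 1 alternative. Kcna2, Kcnab1, Kcnab2, Kcnab3 and Kcnip1 were on the lower side without P66.

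**Figure D5:**
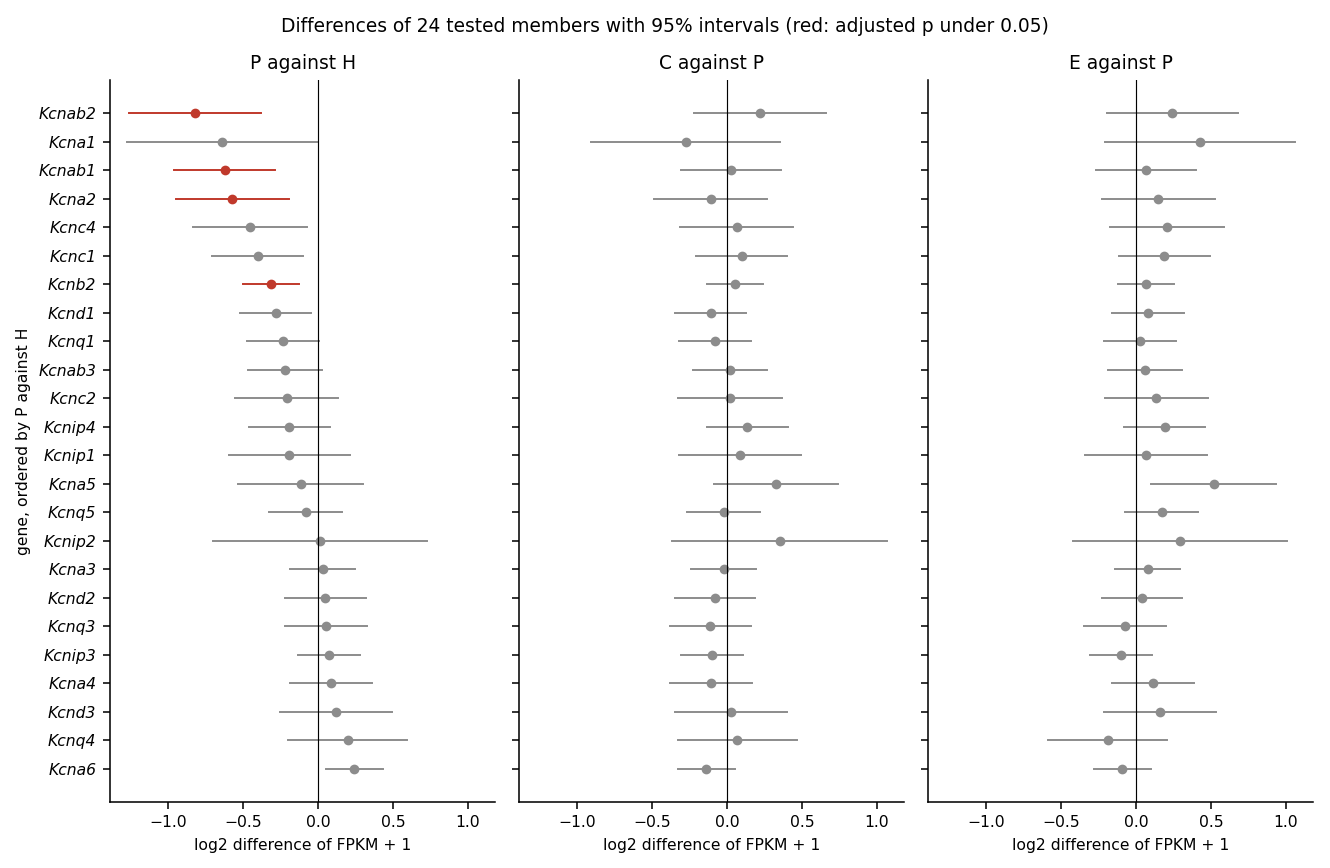
Log2 differences of the 24 tested members with 95% intervals in 3 panels (P minus H, C minus P, E minus P), with genes in the order of the first panel and red for an adjusted p under 0.05. The 4 red genes are all lower in P than in H, and in both treatment panels every gene is grey and every interval holds 0 but that of Kcna5 in E minus P.

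Between the 2 treatments, C against E, 0 of 24 members passed with limma and 0 with limma-voom, against 0.171% of all genes tested. At an unadjusted p under 0.05 with limma, 981 of the 18119 genes tested were lower in C than in E and 1010 were higher. Among the members 1, Kcna1, was lower in C at that threshold, without overlap (-0.70 ± 0.29, interval -1.34 to -0.07, adjusted p = 0.407). Kcna2 was also lower in every C library than in any of E (-0.26 ± 0.17, adjusted p = 0.617), but was 0.21 higher in C with the posterior Hox covariate. In all, 21 of 24 members were on the lower side, with a median of -0.10 against -0.02 over all genes tested, and 15 changed sides in at least 1 alternative.

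Other genes that shape potassium current were counted by list in P against H. Over 8 lists 14 of 73 tested genes passed (19.2%), beside 15.5% of all genes tested (3.26% lower and 12.2% higher). The pooled share hides the direction, since most of these genes fell. At an unadjusted p under 0.05, 22 of the 73 were lower and 8 higher, against 9.13% and 23.6% of all genes tested. The counts are given as a description of the named genes and not as results about the lists. Of the silent Kv modifier subunits, which form no channel alone but alter Kv2 channels, 8 of 10 were tested, 3 fell and 1 rose (median -0.16). Kcng4 fell from 29.5 ± 11.4 to 12.4 ± 4.03 FPKM (-1.15 ± 0.28, adjusted p = 0.0204), Kcns3 from 8.53 ± 1.18 to 5.43 ± 1.65 (-0.59 ± 0.16, adjusted p = 0.030) and Kcng1 from 1.59 ± 0.52 to 0.667 ± 0.337 (-0.64 ± 0.18, adjusted p = 0.0341). The riser was Kcns1, from 1.47 ± 0.28 to 4.15 ± 1.77 FPKM (0.998 ± 0.29, adjusted p = 0.0395), named here to complete the count. Of the 8 Kcnh genes, whose channels include the ERG type, and of the 3 tested Kcne and Kv4 peptidase-like subunit genes, 0 passed with limma and 0 with limma-voom (medians -0.05 and -0.17). At an unadjusted p under 0.05, 2 Kcnh genes were lower.

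Of 13 genes listed for Kv1 clustering along axons, 2 fell and 1 rose (median -0.18). The list also holds genes with other roles, Lgi4 among them. Adam23, a receptor of secreted Lgi proteins, differed by -0.53 ± 0.14 (adjusted p = 0.0257) and Lgi2 by -0.57 ± 0.16 (adjusted p = 0.0328). Lgi4, a Schwann cell factor needed for peripheral myelin, rose from 3.12 ± 0.47 to 6.59 ± 1.25 FPKM (0.88 ± 0.21, adjusted p = 0.0187), beside summed Schwann cell and nerve root markers of 45.6 to 125 FPKM in H and 165 to 243 in P. The part of those markers in it was not tested.

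Among the other potassium channels, the calcium- and sodium-activated genes gave 1 riser of 9 tested, Kcnn3 (0.45 ± 0.10, adjusted p = 0.0126). Of 12 inward rectifiers tested, Kcnj2 rose from 2.66 ± 0.50 to 5.95 ± 1.59 FPKM (0.91 ± 0.15, adjusted p = 0.00368), and Kcnj14 fell from 11.3 ± 3.81 to 3.45 ± 0.87 (-1.43 ± 0.26, adjusted p = 0.00513), as did Kcnj11, a subunit of ATP-sensitive channels (-0.60 ± 0.16, adjusted p = 0.0262). Of 11 2-pore-domain genes, which carry background current, Kcnk6 rose (0.82 ± 0.14, adjusted p = 0.00434) and Kcnk1 fell from 38.5 ± 1.33 to 27.9 ± 0.90 FPKM (-0.45 ± 0.08, adjusted p = 0.00508). Of 9 sodium channel genes tested, which drive the upstroke that Kv channels end, Scn4b fell from 103.6 ± 28.99 to 54.3 ± 19.1 FPKM (-0.94 ± 0.24, adjusted p = 0.0246; list median -0.26). Of these 14 genes, the calls of Kcnj2, Kcnj14, Kcnk1 and Kcnk6 held in all 20 alternatives, and those of the other 10 were lost without P66 and without P67. In C against P, 0 of the 73 genes tested in these 8 lists passed with limma or limma-voom, and 3 had an unadjusted p under 0.05 (2 higher, 1 lower). In E against P it was 0 again with both, and 1 higher and 1 lower.

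The genes of the members sit on 12 chromosomes, and the Kcna genes on 2 of them form clusters. Kcna5, Kcna1 and Kcna6 lie in this order on chromosome 6 with gaps of 105.0 and 61.9 kb, and Kcna3, Kcna2 and Kcna10 on chromosome 3 with gaps of 63.1 and 68.0 kb. Levels within a cluster were far apart. On chromosome 3, Kcna2 stood at 44.1 ± 9.04 FPKM in H between neighbours at 0.349 ± 0.070 (Kcna3) and 0.044 ± 0.056 (Kcna10). On chromosome 6, Kcna1 differed by -0.64 ± 0.29 and its neighbour Kcna6 by 0.24 ± 0.09 in P against H, neither of which passed.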

How the data were processed

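Poly(A) RNA of lumbar cord from 12 mice was sequenced after TRIzol extraction and random-primed, strand-marking synthesis, per the labels' protocols. The submitters' processing notes name cutadapt, HISAT2, featureCounts and GRCm38. Their versions, roles and strand setting were not given in the sources used here. Coordinates are of GRCm38 (GENCODE M21). The authors deposited FPKM values, a unit settled from the values: multiplied by GENCODE M21 exon lengths, 95.2 to 95.7% of the values worth at most 50 reads came out whole (tolerance 0.02). They may be fragments, called reads here. GENCODE M21 matched 33829 identifiers.

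Log2(FPKM + 1) was fitted with limma 3.58.1 (R 4.3.3), 1 mean per group over 12 libraries (8 residual degrees of freedom), with trended, robust moderation. A gene was tested if its CPM matched 10 reads of a median library in 3 libraries and it had 15 reads in all. P-values are two-sided and Benjamini-Hochberg adjusted over 18119 genes. The test was checked on simulated data for P against H only, with the same spread for all genes and changes planted only in genes with many reads. That check did not cover genes with few reads or a wide spread between mice.

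Members and lists were chosen with earlier results of these data known. Some genes that meet the rule are not reported here and enter no count, sum or rank of members, though all genes entered the fits. Values in every H and P library are given for members that passed in any of 7 comparisons and for the highest described in each family. Their values in C and E are given only in part. Values in every library are given for the 3 largest differences in C against P and E against P. Other genes named are, per list, up to 3 of smallest adjusted p that passed. Alternatives changed the pseudocount, filter, scaling, libraries fitted, variance model (limma-voom), a posterior Hox covariate, or left out libraries.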

Additional observations from a re-analysis of the deposited data

How the results depend on the processing

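In P against H, 4 members passed. With no filter on low values or with only P and H in the fit 0 passed, and with the posterior Hox covariate 7. Leaving out 1 library gave 0 (without H2 or P66) to 7 (without P74), with 2 without H1 and 1 without P67. In C against H (3 members), no filter gave 0 and leaving out both H4 and P66, added after seeing the data, 6. Leaving out 1 library gave 0 to 5. In E against H (1 member), no filter gave 0, limma-voom 2, and median-ratio scaling, the Hox covariate and leaving out both H4 and P66 3 each, with 0 to 3 when 1 library was left out. For the 3 ALS model groups against H (5 members), median-ratio scaling and the Hox covariate gave 9 each, with 0 (without H2) to 7 when 1 library was left out. In C against P, E against P and C against E, 0 members passed in all 20 alternatives.

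All members that passed in P against H stayed on the lower side in all 20 alternatives. Kcnab2 passed in 15, Kcnab1 in 14, Kcnb2 in 12 and Kcna2 in 8. Over all members tested, 9 of 24 changed sides in P against H in at least 1 alternative, 12 in C against P, 9 in E against P and 15 in C against E, none of them passing when turned. Kcna1 in C against P turned to 0.0092 with the Hox covariate, and, in P against H, Kcnd2 to -0.0561 with median-ratio scaling and to -0.045 without H1 (up to 0.187, without H4), Kcnip3 to -0.0356 with median-ratio scaling, and Kcnq3 to -0.0478 with that scaling, -0.0354 without H1 and -0.0091 without P66 (up to 0.119 when 1 library was left out). In P against H the other members that turned were Kcna3 (3 of 19 alternatives), Kcna5, Kcnip1 and Kcnip2 (2 of 20 each), and Kcnc2 and Kcnq5 (1 of 20 each), at most to -0.37, for Kcnip2. The cause of these changes was not tested.

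No paired analysis was possible because the mouse numbers are not shared between groups. With 3 mice per group, the median standard error of a member was 0.13 (log2). Kcnq1, Kcna3 and Kcnb2 stand on few reads, at least 12, 6 and 178 per library.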
